A study of Mus musculus with 51 samples.

Results

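Zfp352, Tdpoz1, Tdpoz3, Tdpoz4, Sp110 and Ddit4l are 6 genes known from the two-cell stage of the mouse embryo, taken here by gene symbol from 5 RNA count tables that together list 37525 genes. Chromatin peaks within 2 kb of the deposited start of each gene were taken with them. RNA came from C57BL/6 two-cell embryos labelled LoNA KO or control at 18h, 20h, 22h and 24h, and from 2C-like mESC labelled LoNA KD or control, which are mouse embryonic stem cells named for their likeness to the two-cell embryo. LoNA is a long noncoding RNA of the nucleolus. Chromatin came from 24h embryos, LoNA KO or control, for H3K4me3, H3K27me3 and acetylated nucleophosmin (AcNPM1), and for AcNPM1 also from LoNA KO embryos given a p300 inhibitor. The labels do not say from which event the hours count, how the KO or KD was made, or how many embryos a library pooled.

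In the mouse the embryonic genome becomes active at the two-cell stage, when a set of genes and retrotransposons is transcribed in a short burst and then silenced before the next cleavage. Zfp352 encodes a C2H2 zinc finger protein. The Tdpoz genes encode proteins with a TRAF domain and a POZ domain, like Spop, which links its targets to a Cullin 3 ubiquitin ligase. Sp110 encodes a nuclear body protein of the Sp100 family. Ddit4l, also called REDD2, encodes a stress-inducible inhibitor of mTOR signalling.

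On mm10, Zfp352 (ENSMUSG00000070902) lies at chr4:90218820-90225702 on the plus strand and Sp110 (ENSMUSG00000070034) at chr1:85576899-85598817 on the minus strand. Tdpoz1 (ENSMUSG00000094084) lies at chr3:93669333-93676310 on the minus strand, Tdpoz4 (ENSMUSG00000060256) at chr3:93796398-93797510 and Tdpoz3 (ENSMUSG00000058005) at chr3:93826020-93827117, both on the plus strand. Ddit4l (ENSMUSG00000046818) lies at chr3:137621612-137628333 on the plus strand. All 6 are annotated as protein-coding genes in the deposited tables.

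RefSeq (GRCm38.p6, the assembly behind mm10) gave upstream sequence for 5 of the 6 genes, with 2 starts for Sp110, and Tdpoz3 was not matched. The 250 bases before each start are shown because 3 of the genes share a run of letters there and because peaks lay at Sp110 and Ddit4l. Capitals mark TAATCC and its reverse complement GGATTA, the core recognised by Otx-type homeodomain proteins, and TATAA. The stretches are chr4:90218570-90218819 (plus strand) for Zfp352, chr3:93676284-93676533 (minus) for Tdpoz1, chr3:93796148-93796397 (plus) for Tdpoz4, chr1:85603892-85604141 (minus) and chr1:85598811-85599060 (minus) for Sp110, and chr3:137623422-137623671 (plus) for Ddit4l.
Zfp352: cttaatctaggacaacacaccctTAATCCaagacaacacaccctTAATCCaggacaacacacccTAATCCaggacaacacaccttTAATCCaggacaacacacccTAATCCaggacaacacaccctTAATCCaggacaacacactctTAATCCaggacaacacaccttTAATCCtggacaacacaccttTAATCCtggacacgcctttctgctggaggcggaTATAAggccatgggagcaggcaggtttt
Tdpoz1: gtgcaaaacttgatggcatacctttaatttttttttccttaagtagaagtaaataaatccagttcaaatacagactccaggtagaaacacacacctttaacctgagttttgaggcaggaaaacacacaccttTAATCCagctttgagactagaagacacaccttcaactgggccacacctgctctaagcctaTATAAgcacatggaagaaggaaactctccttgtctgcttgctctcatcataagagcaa
Tdpoz4: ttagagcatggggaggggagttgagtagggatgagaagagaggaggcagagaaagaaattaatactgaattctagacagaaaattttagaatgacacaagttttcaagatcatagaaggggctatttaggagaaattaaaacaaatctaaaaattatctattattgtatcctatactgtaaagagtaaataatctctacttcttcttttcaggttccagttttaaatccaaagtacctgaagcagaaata
Sp110, start 85603891: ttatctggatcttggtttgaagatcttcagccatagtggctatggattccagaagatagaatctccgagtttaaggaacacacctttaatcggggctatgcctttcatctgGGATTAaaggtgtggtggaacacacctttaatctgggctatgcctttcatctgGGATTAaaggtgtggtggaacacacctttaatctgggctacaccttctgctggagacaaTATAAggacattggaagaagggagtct
Sp110, start 85598810: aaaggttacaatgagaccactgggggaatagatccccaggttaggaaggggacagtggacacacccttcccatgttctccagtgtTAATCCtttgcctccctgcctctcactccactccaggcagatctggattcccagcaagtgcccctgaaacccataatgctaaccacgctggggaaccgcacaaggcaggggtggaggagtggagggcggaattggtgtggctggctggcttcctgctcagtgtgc
Ddit4l: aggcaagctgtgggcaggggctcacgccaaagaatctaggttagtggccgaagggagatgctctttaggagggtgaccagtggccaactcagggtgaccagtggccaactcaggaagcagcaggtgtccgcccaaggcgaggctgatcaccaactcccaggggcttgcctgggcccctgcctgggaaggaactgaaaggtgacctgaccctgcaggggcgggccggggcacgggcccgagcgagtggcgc

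The Zfp352 sequence held TAATCC 9 times, spaced along a tandem repeat, and it was the 1 promoter of 32851 RefSeq promoters with at least that many. At least 1 copy of TAATCC or GGATTA was present in 6.25% of those promoters and at least 2 copies in 0.295%. The Sp110 sequence before 85603891 held 2 copies, both as GGATTA, and the sequences before Tdpoz1 and before the Sp110 start at 85598810 held 1 each. A longer run, CACCTTTAATC, is the 11-letter run ending in TAATC that the Zfp352, Tdpoz1 and upstream Sp110 sequences all hold, so it overlaps TAATCC, and it was picked after the sequences had been read. B1 short interspersed repeats of the mouse carry similar letters, and whether these stretches are such repeats was not tested. It occurred on either strand 3 times before Zfp352, 1 time before Tdpoz1 and 5 times before the Sp110 start at 85603891. Only 53 of the 32851 promoters (0.161%) held it at all, 17 (0.0517%) at least 3 times and 1 at least 5 times. The same 3 sequences held TATAA on the gene's strand, 28 bases before the RefSeq start in Zfp352, 27 in Sp110 and 58 in Tdpoz1. The deposited start of Tdpoz1, at 93676310, lies nearer to this TATAA than its RefSeq start, at 93676283. TATAA on either strand was present in 22.8% of promoters, and on the gene's strand between 40 and 20 bases before the start in 3.52%. None of these 3 motifs was in the 250 bases before Tdpoz4 or Ddit4l, which says only that these letters are not in those windows. The Tdpoz1 sequence shared an unbroken run of 186 bases with that of its relative Tdpoz9 (Gm9125 in the tables). The Tdpoz genes are a family of related copies, their transcripts were not compared here, and how reads shared by copies were counted is not given in the sources used here, so their counts are uncertain.

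**Figure D1:**
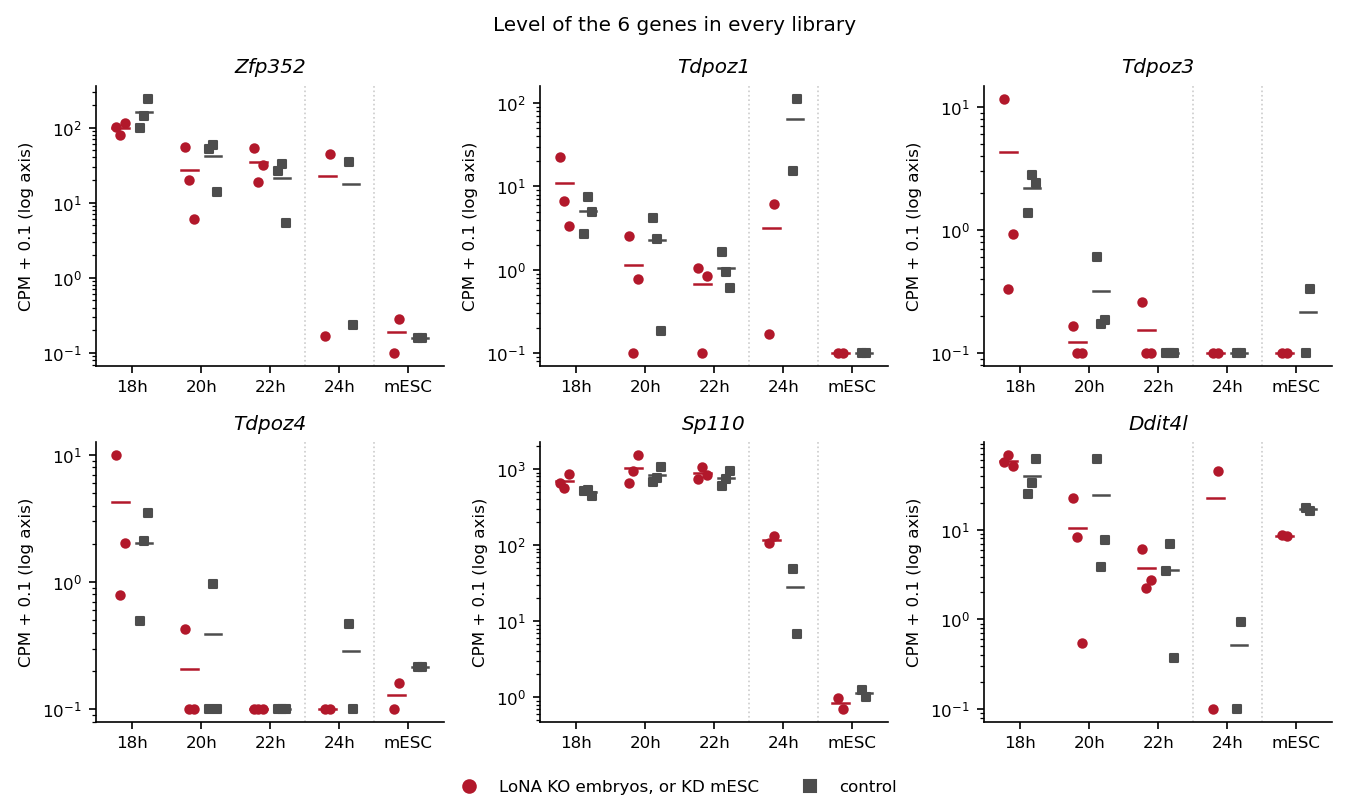
Level of each gene in every RNA library, as CPM + 0.1 on a log axis, with LoNA KO embryos or KD mESC as red circles left of control as grey squares, and bars for group means. Mean Zfp352 and mean Ddit4l were highest at 18h among the 18h, 20h and 22h tables in both genotypes, while mean Sp110 was lowest there.

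The 18h, 20h and 22h tables had 3 libraries per group with totals of 12077497 to 18286944 counts, and mESC had 2 columns per group with 16906302 to 17674190. The 8 columns at 24h, 5852761 to 9244870 counts, formed 4 pairs with correlations of 0.9954 to 0.9975 against 0.5722 to 0.6324 between other columns, and each pair was summed, which left 2 libraries per group. All 16 maternal oocyte genes had counts in every 18h, 20h and 22h library, and all 14 defining two-cell markers (Zscan4, Tcstv and others) in every 18h library. In mESC these 14 markers summed to 5.90 to 6.24 CPM in KD and 14.1 to 14.7 CPM in control, against 229 to 1706 CPM in the 18h, 20h and 22h embryos, so two-cell markers were low in the cells labelled 2C-like. No row is named LoNA, so the labels were not checked on the targeted gene itself. Gm17382, singled out after its values were seen, had 0 to 3 counts in each KO library against 507 to 12333 in each control library at 18h, 20h and 22h. Nothing says that libraries of a group came from separate collections, so a p measures the spread between libraries, and in bulk samples fewer embryos or cells expressing a gene and less RNA per cell cannot be told apart.

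Zfp352 averaged lower at 22h than at 18h in both genotypes, with an adjusted p below 0.05 by edgeR with the low-count filter in control embryos only. At 18h it had 101, 78.7 and 114 CPM in KO embryos and 98.7, 144 and 242 CPM in control embryos. At 20h it had 54.2, 20.0 and 5.98 CPM in KO embryos and 51.1, 59.2 and 13.8 CPM in control embryos. At 22h it had 52.6, 18.7 and 31.7 CPM in KO embryos and 26.3, 32.5 and 5.30 CPM in control embryos. Every 20h and 22h library of either genotype lay below every 18h library of that genotype. For Zfp352 and the genes below, the share of all genes separated in this way between times was not counted. One fit over the 18 libraries gave a log2 change of -2.92 (SE 0.70, adjusted p = 0.0368 by edgeR) for 22h against 18h in control embryos, and -1.52 (SE 0.66, adjusted p = 0.223) in KO embryos. With no filter on low counts, edgeR gave Zfp352 an adjusted p of 0.00454 in KO embryos, where 1258 genes passed, and DESeq2 did not call it there. The call in control embryos was lost when the 18h control library 2 or 3 or any 22h control library was left out, with adjusted p between 0.0538 and 0.181 and log2 changes between -3.34 and -2.43. Each time stands in its own table, so time and table cannot be told apart.

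Of the 6 genes, 1 passed the threshold of adjusted p below 0.05 as lower at 22h against 18h in control embryos, where 0.605% of 19515 genes passed as lower and 0.984% as higher. In KO embryos 1 did, Ddit4l, where 1.93% passed as lower and 2.03% as higher. Ddit4l had 55.9, 67.7 and 50.6 CPM in KO embryos and 24.5, 32.8 and 60.4 CPM in control embryos at 18h. At 20h it spread widely, with 22.5, 8.07 and 0.448 CPM in KO embryos and 61.0, 3.73 and 7.57 CPM in control embryos. At 22h it had 6.02, 2.13 and 2.62 CPM in KO embryos and 3.37, 6.73 and 0.276 CPM in control embryos, all below every 18h library. The log2 change for 22h against 18h was -4.01 (SE 1.10, adjusted p = 0.0441 by edgeR) in KO embryos and -3.50 (SE 1.08, adjusted p = 0.115) in control embryos. In control embryos the adjusted p for Ddit4l was 1.46e-08 by edgeR with no filter on low counts and 0.0392 by DESeq2. Whether Ddit4l passed there thus depended on the tool and the filter. In KO embryos the call was lost without the 18h KO library 1 or 2, any 22h KO library or the 22h control library 1, with adjusted p between 0.0539 and 0.164 and log2 changes between -4.54 and -3.67.

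The Tdpoz genes had few reads, and none passed the threshold between times in edgeR with the low-count filter. Tdpoz1 had counts of 354, 85 and 36 in KO embryos and 33, 121 and 76 in control embryos at 18h. At 20h it had 37, 0 and 9 counts in KO embryos and 58, 31 and 1 in control embryos. At 22h it had 18, 0 and 13 counts in KO embryos and 25, 15 and 9 in control embryos, and these 22h libraries lay below every 18h library of the same genotype. The next gene, Tdpoz3, had 181, 3 and 9 counts in KO embryos and 16, 44 and 36 in control embryos at 18h. Its 20h libraries had 1, 0 and 0 counts in KO embryos and 7, 1 and 1 in control embryos, and its 22h libraries 3, 0 and 0 counts in KO embryos and none in control embryos. In KO embryos the 18h level thus rested largely on library 1, while in control embryos all 3 libraries had counts. Later libraries were near 0 in both genotypes. Tdpoz4 had 155, 9 and 21 counts in KO embryos and 5, 33 and 53 in control embryos at 18h, and at 20h 5, 0 and 0 counts in KO embryos and 0, 12 and 0 in control embryos. It is not listed in the 22h table. With 3 counts per group as the floor, mean CPM at 22h was at least 36.2-fold lower than at 18h for Tdpoz3 in control embryos. Without the 18h control library 2, which had most Tdpoz3, this limit was 31.1-fold. For Tdpoz4 mean CPM at 22h was at least 76.0-fold lower in KO embryos and at least 33.6-fold lower in control embryos. Without the 18h library with most Tdpoz4, KO library 1 and control library 3, these limits were 23.9-fold in KO and 20.9-fold in control embryos. By edgeR the adjusted p for 22h against 18h was 0.113 in KO and 0.0917 in control embryos for Tdpoz3, 0.0695 in KO and 0.157 in control embryos for Tdpoz4, and 0.123 in KO and 0.483 in control embryos for Tdpoz1. With no filter on low counts, edgeR gave an adjusted p of 0.0265 for Tdpoz1 and 0.0215 for Tdpoz4 in KO embryos, where 1258 genes passed. DESeq2 gave an adjusted p of 0.00724 in KO and 0.00432 in control embryos for Tdpoz3, and 0.00509 in KO and 0.0297 in control embryos for Tdpoz4. For Tdpoz1 in KO embryos DESeq2 gave an adjusted p of 0.0116. These calls thus depend on the tool and on the filter. DESeq2 called 5.88% of genes as lower in KO embryos and 3.30% in control embryos for this step.

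Sp110 did not share that course. At 18h it had 660, 559 and 866 CPM in KO embryos and 519, 537 and 448 CPM in control embryos. At 20h it had 661, 939 and 1533 CPM in KO embryos and 683, 760 and 1079 CPM in control embryos. At 22h it had 733, 1077 and 833 CPM in KO embryos and 595, 740 and 944 CPM in control embryos, so the 18h and 22h groups overlapped in KO embryos and not in control embryos. The log2 change for 22h against 18h was 0.34 (SE 0.31, adjusted p = 0.603) in KO embryos and 0.60 (SE 0.31, adjusted p = 0.405) in control embryos by edgeR. For 20h against 18h it was 0.59 (SE 0.31, adjusted p = 0.300) in KO embryos and 0.75 (SE 0.31, adjusted p = 0.259) in control embryos.

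**Figure D2:**
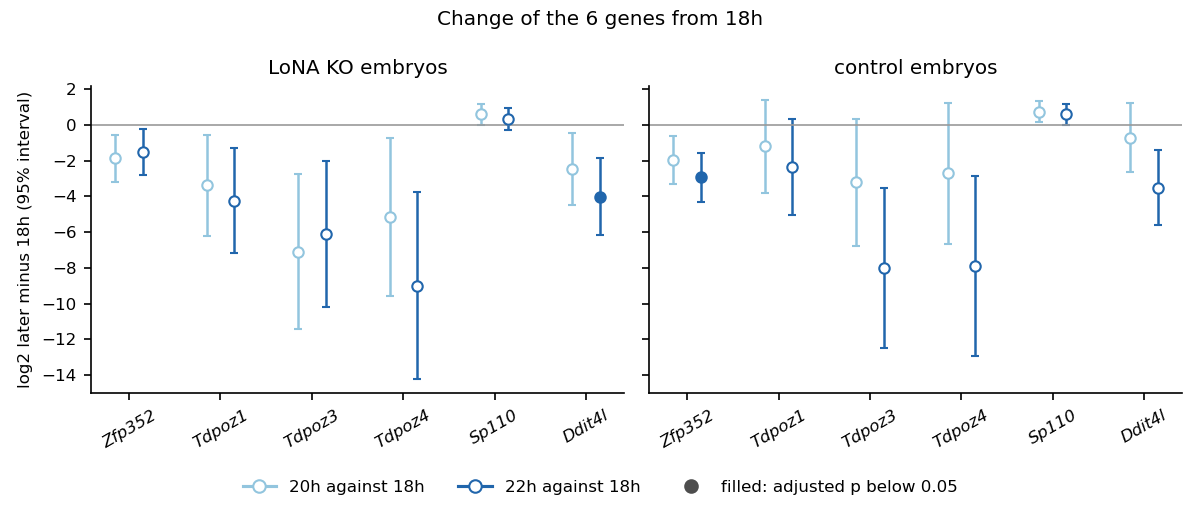
Log2 change of each gene at 20h and at 22h against 18h, in LoNA KO embryos left of control embryos, from 1 edgeR fit over 18 libraries. Bars are 95% intervals by a normal approximation from the SE. All but Sp110 lay below 0, and the filled points are Zfp352 in control embryos and Ddit4l in KO embryos, both at 22h.

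Between neighbouring times the steps were less clear. No member passed the threshold in the filtered edgeR fit for 20h against 18h or 22h against 20h in either genotype. The background for 20h against 18h was 0.323% lower and 0.794% higher in KO embryos, and 0.241% lower and 0.635% higher in control embryos. For 22h against 20h it was 4.18% lower and 4.08% higher in KO embryos, and 1.47% lower and 1.27% higher in control embryos. At an unadjusted p below 0.05 the steps were 20h against 18h for Zfp352, Tdpoz1, Tdpoz3, Tdpoz4 and Ddit4l in KO embryos and for Zfp352 and Sp110 in control embryos, and 22h against 20h for Tdpoz3, Tdpoz4 and Ddit4l in control embryos. Of all 19515 genes, 18.8%, 15.1% and 17.4% were below that p in these 3 steps. By DESeq2 1 member, Tdpoz3, passed as lower for 20h against 18h in KO embryos, where 4.57% of genes did, and none in the other 3 steps. Mean Zfp352 was ordered 18h, 22h, 20h from high to low in KO embryos and 18h, 20h, 22h in control embryos, and its 20h and 22h levels did not differ beyond their spread in either genotype (adjusted p = 0.808 in KO and 0.482 in control embryos by edgeR). Mean Ddit4l was ordered 18h, 20h, 22h in both genotypes, with adjusted p of 0.393 in KO and 0.164 in control embryos for 22h against 20h by edgeR.

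Across the 18 embryo libraries Sp110 ran opposite to Zfp352, with a Pearson r of -0.82 of log2(CPM + 1), and of -0.82 also after each group's mean was taken out. The library with the least Zfp352 in the 20h KO group (5.98 CPM) had the most Sp110 (1533 CPM) and the least Ddit4l (0.448 CPM). Library 3 of the 22h control group likewise had the least Zfp352 (5.30 CPM) and Ddit4l (0.276 CPM) and the most Sp110 (944 CPM) of its group. Zfp352 and Ddit4l went together with an r of 0.85, and 0.74 with the group means taken out. Tdpoz3 and Tdpoz4 gave 0.92 and 0.84 in the same way. These points share library, depth and time, and the values are a description.

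By the same measure over 14557 genes with a mean of at least 1 CPM, the patterns most like Zfp352 were those of Zfp353-ps (0.93), a processed pseudogene, B020004J07Rik (0.92), which RefSeq calls Pramel17, and Zscan4d (0.90), a SCAN-domain zinc finger gene of the two-cell stage. Tdpoz1 was nearest to AF067063 (0.92), Upp1 (0.92), which encodes a uridine phosphorylase, and AC117769.3 (0.92). Among the genes nearest to Tdpoz3 were Tdpoz4 (0.92) and AI464131 (0.89). Tdpoz4 was nearest to Gm9125 (0.93), that is Tdpoz9, then to Tdpoz3 (0.92) and AC122905.1 (0.90). Sp110 was nearest to the pseudogene Gm15753 (0.90), Ppa1 (0.89), a pyrophosphatase gene, and Ndufa10 (0.87), a subunit of respiratory complex I. Ddit4l was nearest to Gm26917 (0.92), AC153132.1 (0.92) and AC159326.1 (0.92).

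LoNA KO embryos were compared with control embryos at each time. No member passed the threshold at 18h, 20h or 22h by edgeR, none had an unadjusted p below 0.05, and DESeq2 called none. The background was as low, with 0% of 15416 genes higher and 0.00649% lower at 18h, 0.00689% of 14524 genes each way at 20h, and 0% of 15251 genes higher and 0.00656% lower at 22h, and 793, 532 and 481 genes at an unadjusted p below 0.05. At 18h every Sp110 value in KO embryos lay above every value in control embryos (log2 0.46, SE 0.27, adjusted p = 1 by edgeR), where 12.8% of genes had groups without overlap, and the other 5 genes overlapped. Zfp352 averaged 98.1 ± 18.0 CPM in KO embryos and 161 ± 73.0 CPM in control embryos at 18h (SD, n = 3 each), a log2 difference of -0.73 (SE 0.36, adjusted p = 0.969 by edgeR). Tdpoz1, Tdpoz3 and Tdpoz4 averaged higher in KO embryos at 18h, with log2 differences of 1.10, 0.97 and 1.07, but KO library 1 decided this. Without it they were 0.00, -1.97 and -0.56, with adjusted p of 0.77 or more by edgeR.

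At 20h the log2 differences for KO against control embryos were -0.66 (SE 0.72) for Zfp352, 0.27 (SE 0.36) for Sp110, -1.24 (SE 1.15) for Ddit4l and -1.08 (SE 1.83) for Tdpoz1. At 22h they were 0.68 (SE 0.58) for Zfp352, 0.21 (SE 0.25) for Sp110, 0.05 (SE 0.91) for Ddit4l and -0.75 (SE 1.44) for Tdpoz1. Tdpoz3 and Tdpoz4 had too few counts to be tested at 20h and 22h. All groups overlapped at both times, where 9.90% and 9.19% of genes had groups without overlap. Whether the KO difference changed over 18h, 20h and 22h was tested in the fit over all 18 libraries, and by edgeR no gene of 19515 passed (0%), nor any member, with member adjusted p between 0.836 and 1. Between single times, Tdpoz3 for 22h minus 20h was the 1 member below an unadjusted p of 0.05, with an adjusted p of 0.776 by edgeR, and 1243 genes in all were below it.

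**Figure D3:**
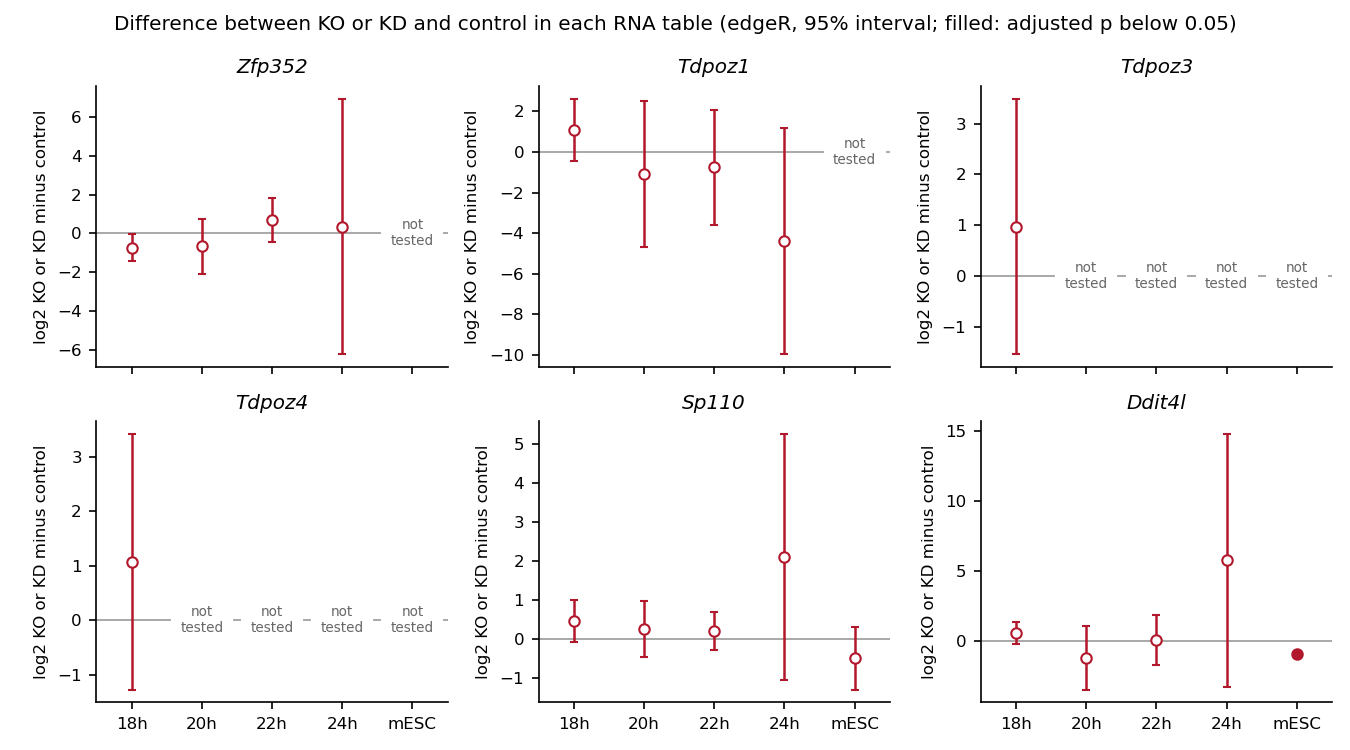
Log2 difference of each gene between LoNA KO and control embryos at 18h, 20h, 22h and 24h and between LoNA KD and control mESC. Each gene has an own vertical scale. Bars are 95% intervals by a normal approximation from the SE, which is narrow for so few libraries. That of Zfp352 at 18h leaves out 0, though its unadjusted p by edgeR was 0.0682. The 1 filled point is Ddit4l in mESC, and genes with too few counts are marked as not tested.

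At 24h nearly all reads of Zfp352 lay in 1 library of each group, and so did the reads of Ddit4l. In KO embryos this was the same library for both genes, and in control embryos it was not. Zfp352 had 1 and 726 counts in the KO libraries and 564 and 2 in the control libraries. Ddit4l had 0 and 726 counts in the KO libraries and 0 and 12 in the control libraries. In both groups the library rich in Zfp352 was therefore 1 of 2, and Ddit4l was at 0 in 1 library of each group. Tdpoz1 had 1 and 98 counts in KO and 246 and 1643 in control embryos, with no overlap (log2 -4.39, SE 2.85, adjusted p = 1 by edgeR). Sp110 had 1493 and 2125 counts in KO and 786 and 96 in control embryos, again with no overlap (log2 2.1, SE 1.60, adjusted p = 1 by edgeR). By edgeR no gene of 7425 passed in either direction (0%), 383 had an unadjusted p below 0.05 with no member among them, and 33.3% had groups without overlap. DESeq2 called no member, though it called 1405 genes. Sp110 averaged 118 ± 17.9 CPM in KO and 27.6 ± 29.7 CPM in control embryos (SD, n = 2 each), below every library of the earlier tables, on a scale set within the 24h table. Mitochondrial transcripts took 12.9% to 19.3% of counts at 24h against 1.48% to 9.84% elsewhere, and their part in the levels was not tested.

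In mESC Ddit4l was lower in KD than in control cells. It had 147 and 140 counts (8.57 and 8.34 CPM) in KD and 302 and 281 counts (17.3 and 16.1 CPM) in control columns, a log2 difference of -0.98 (SE 0.12, adjusted p = 1.71e-07 by edgeR). It was the 1 member to pass, in a table where 35.3% of 16406 genes passed as lower and 38.9% as higher and 86.6% had groups without overlap. The p rests on columns that correlated at 0.998 within each group. Sp110 had 15 and 10 counts in KD and 20 and 16 in control columns (log2 -0.48, SE 0.41, adjusted p = 0.294 by edgeR). Zfp352 had 0 and 3 counts in KD and 1 and 1 in control columns, Tdpoz3 and Tdpoz4 had at most 4 in any column, and Tdpoz1 is not listed. Pluripotency genes moved with Ddit4l: 14 of 15 passed as lower, and their summed level was 3270 to 3332 CPM in KD and 6410 to 6428 CPM in control columns. Fibroblast markers were 273 to 274 CPM in KD and 598 to 618 CPM in control columns, with 9 of 10 passing as lower. Other lists fell too: 6 of 10 cumulus and granulosa genes tested passed as lower and 1 as higher. Of 7 trophectoderm genes tested, 5 passed as lower and 1 as higher. The part of these lists in the Ddit4l value was not tested. Of the other two-cell genes, 14 of the 19 tested passed as lower in KD and 2, Zfp54 and Zfp560, as higher, with a median log2 difference of -1.08 against 0.01 over all genes.

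Close relatives of the members were followed through the same fits. Of 10 relatives tested for 22h against 18h, Gm4858 (Tdpoz8) and Sp140, the neighbour of Sp110, passed as lower in both genotypes, and none passed as higher. The share of all genes passing as lower was 1.93% in KO and 0.605% in control embryos. Gm4858 had no counts at 22h in either genotype, and at 18h it averaged 8.85 ± 4.42 CPM in KO and 21.2 ± 11.6 CPM in control embryos (SD, n = 3 each). Sp140 had a log2 change of -2.08 (SE 0.54, adjusted p = 0.0326) in KO and -2.25 (SE 0.54, adjusted p = 0.0390) in control embryos by edgeR, while Sp110 beside it had positive values. Zfp353-ps averaged 4.60 ± 3.54 CPM in KO and 1.62 ± 1.96 CPM in control embryos at 22h, and 31.8 ± 21.8 CPM in KO and 45.5 ± 11.6 CPM in control embryos at 18h (SD, n = 3 each). Spop, the widely expressed relative of the Tdpoz genes, averaged 81.9 ± 31.6 CPM in KO and 81.6 ± 18.4 CPM in control embryos at 22h, and 81.1 ± 33.4 CPM in KO and 72.9 ± 23.0 CPM in control embryos at 18h (SD, n = 3 each).

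Among 46 other two-cell genes tested for 22h against 18h, 12 passed as lower in KO and 11 in control embryos, and 1, Arg2, as higher in each. Of all genes, 1.93% passed as lower and 2.03% as higher in KO embryos, and 0.605% and 0.984% in control embryos. Genes of this list and members could pass the low-count filter through their 18h libraries alone, which favours negative values. The median log2 change of the 46 genes was -2.84 in KO and -3.21 in control embryos. That of the 6 members was -4.13 in KO and -3.21 in control embryos, and that of all 19515 genes was -0.01 in KO and -0.10 in control embryos. The 3 with the lowest values that passed in KO embryos were Rfpl4b, Gm10696 and AF067063, with log2 changes of -8.32, -7.67 and -6.38. In control embryos they were Gm2056, Zscan4f and AF067061, with -11.56, -5.60 and -5.32. These are fitted values, which for a gene with few or no counts at 22h depend on the fit and are no bounds. For KO against control embryos none of the list passed at 18h, 20h, 22h or 24h by edgeR.

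The genes with the run CACCTTTAATC were mostly negative for 22h against 18h, and few of them passed the threshold. The 53 promoters belonged to 52 genes, of which 49 were not members, 33 of these were in the tables and 31 could be tested. For 22h against 18h, 26 of the 31 (83.9%) were negative in KO embryos and 29 (93.5%) in control embryos, where 50.3% of all 19515 genes were negative in KO and 53.9% in control embryos. Some of these genes are copies of 1 family and share sequence, so they are not separate cases. A gene could pass the low-count filter through its 18h libraries alone. Gm4858, for example, averaged 21.2 CPM in control embryos at 18h and 0 at 22h. For such genes a negative value was favoured in advance, so the share over all genes is not a matched comparison. Their median log2 change was -1.90 in KO and -2.24 in control embryos, and 3 passed as lower by edgeR in KO and 1 in control embryos, with none as higher. With 9 letters of the run, tried after the data were seen, 50 of 74 genes (67.6%) were negative in KO and 57 (77.0%) in control embryos, and with 14 letters 21 of 22 (95.5%) in KO and 20 (90.9%) in control embryos. They included Gm4858 and Gm9125 among the relatives and Gm8994 (Eif4a3l1), Gm4340 and Gm10696 (Spopfm2) among the other two-cell genes. No maternal oocyte, pluripotency, fibroblast, cumulus or trophectoderm gene of the lists held the run. With the run in 0.161% of promoters, lists of 9 to 16 genes were likely to hold none, so this decides nothing. The oocyte genes Khdc1b and Zbed3, chosen after their values were seen, held it as well, at 4970 and 6710 CPM in KO and 4480 and 5830 CPM in control embryos at 22h. Sp110, with 5 copies before its upstream start, and Ocm were the 2 tested genes with the run whose log2 change was positive in both genotypes.

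**Figure D4:**
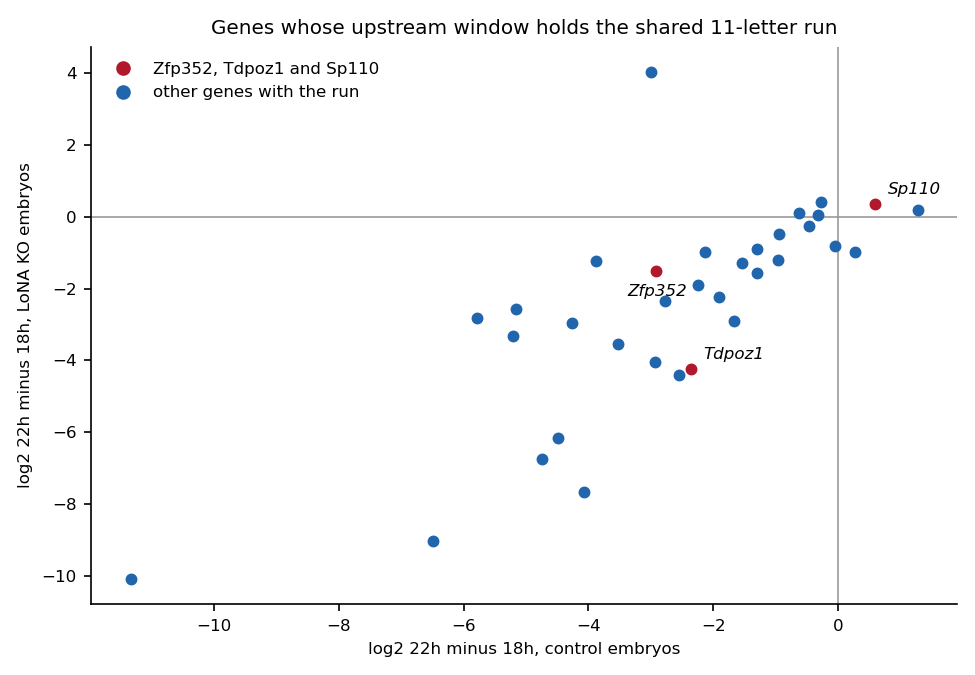
Log2 change at 22h against 18h in LoNA KO embryos (vertical axis) and in control embryos (horizontal axis) of the genes whose upstream 250 bases held the shared run, each point 1 gene. Of the 31 that were not members, 29 lay left of 0 on the control axis and 26 below 0 on the KO axis.

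Chromatin of 24h embryos was compared from peak tables with 1 column per condition, so ratios have no replicate check and intervals cover counting error only. Within 2 kb of the deposited starts, H3K4me3 peaks were listed at 1 of the 6 genes, H3K27me3 peaks at 2 and AcNPM1 peaks at 2, where 50.7%, 12.6% and 11% of all 37525 genes had one. The genes were Ddit4l for all 3 and Sp110 for H3K27me3 and AcNPM1. None of the tables listed a peak within 2 kb of Zfp352, Tdpoz1, Tdpoz3 or Tdpoz4. The nearest to Zfp352 was 66980 bp away (H3K4me3) and the nearest to any Tdpoz member 12498 bp away (AcNPM1, from Tdpoz3). Whether reads can be placed in the tandem repeat before Zfp352 and in the related Tdpoz copies was not tested. A missing peak there thus does not show that a mark was absent.

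At Sp110 an AcNPM1 peak over the deposited start, chr1:85598484-85599034, had 8.74 RPM in KO (527 reads) and 7.14 RPM in control embryos (229 reads), a log2 ratio of 0.29 (exact 95% interval 0.07 to 0.52). A second, chr1:85599261-85599611, had 5.27 RPM in KO and 3.87 RPM in control embryos (log2 0.45, interval 0.14 to 0.76), while the median over all 9602 AcNPM1 peaks was 0.14. In KO embryos given the p300 inhibitor these peaks had 7.77 and 4.84 RPM, against 8.74 and 5.27 RPM in KO embryos without it, log2 ratios of -0.17 (interval -0.38 to 0.04) and -0.12 (interval -0.39 to 0.14), beside a median of -0.08. The H3K27me3 peak over the start, chr1:85598425-85598936, had 6.60 RPM in KO and 5.82 RPM in control embryos (log2 0.18, interval -0.05 to 0.42). The wider one next to it, chr1:85599297-85601004, had 16.2 RPM in KO and 16.7 RPM in control embryos (log2 -0.04, interval -0.18 to 0.10). These AcNPM1 and H3K27me3 peaks all lie within 2 kb of the starts of Gm16094 and Sp140 as well, so they cannot be assigned to Sp110 alone. No H3K4me3 peak lay within 2 kb of the deposited start. One at chr1:85604254-85604651, 363 bp upstream of the RefSeq start at 85603891, had 2.26 RPM in KO (112 reads) and 1.37 RPM in control embryos (91 reads), a log2 ratio of 0.72 (interval 0.31 to 1.14) where the table's median was -0.13 and 99.8% of peaks had a lower ratio. That rank is over peaks of every depth, and it was not set against peaks with as few reads. H3K27me3 and AcNPM1 peaks overlapped this H3K4me3 peak, with log2 ratios of -0.15 and 0.06.

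At Ddit4l the peaks of both histone marks and of AcNPM1 lay over the RefSeq start at 137623672, within the deposited gene. H3K4me3 at chr3:137623099-137624650 had 16.2 RPM in KO and 19.6 RPM in control embryos (log2 -0.27, interval -0.40 to -0.14). H3K27me3 at chr3:137623188-137624206 had 5.20 RPM in KO and 4.78 RPM in control embryos (log2 0.12, interval -0.14 to 0.39). AcNPM1 at chr3:137623392-137624129 had 4.86 RPM in KO and 5.74 RPM in control embryos (log2 -0.24, interval -0.51 to 0.03), and with the p300 inhibitor a peak of the same start had 5.34 RPM, against 5.17 RPM in KO embryos without it (log2 0.05, interval -0.22 to 0.31). No peak at a member was past a 2-fold ratio, a size reached by 0.0103% of H3K4me3 peaks as higher and 0.0658% as lower, by 0.0258% and 0.223% of H3K27me3 peaks, by 0.396% and 0.219% of AcNPM1 peaks, and by 0.128% and 0.400% with the inhibitor.

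**Figure D5:**
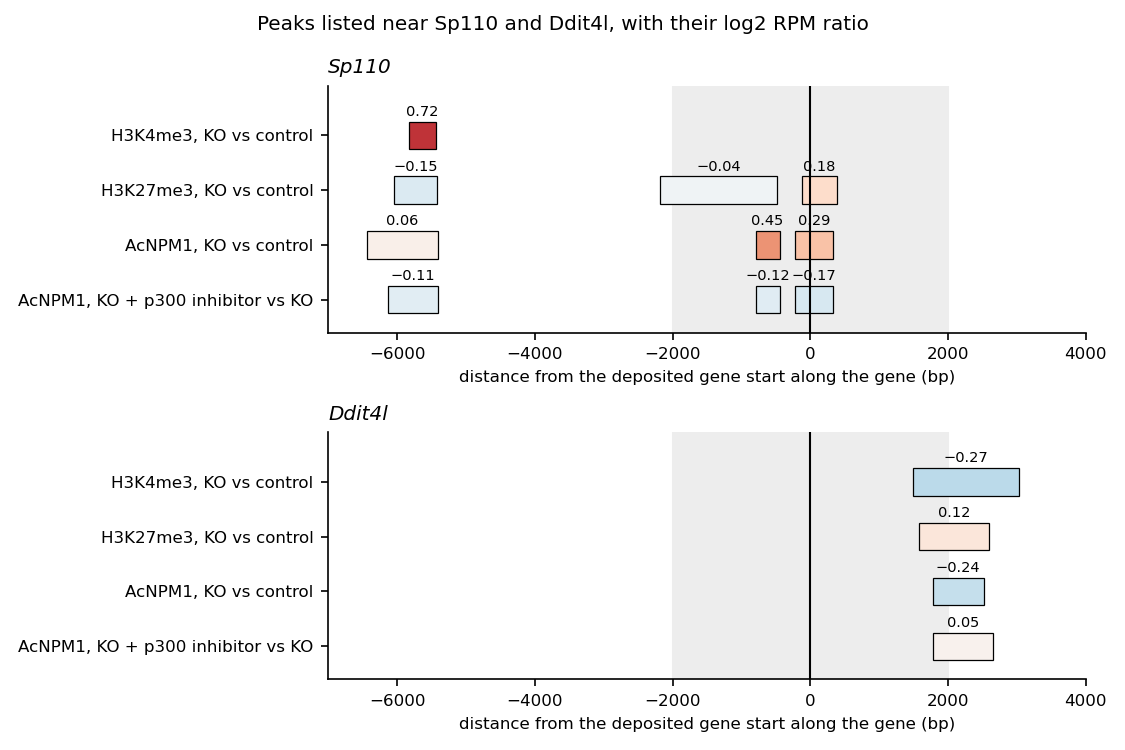
Peaks listed near Sp110 (top) and Ddit4l (bottom) in each chromatin table, by distance in bp from the deposited gene start along the gene, with the 2 kb window shaded. The colour and the number above each box are the log2 RPM ratio, which ran from -0.27 to 0.72.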

How the data were processed

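RNA counts were deposited as 1 table per time and 1 for mESC; the authors' tables list raw read counts per gene with mm10 positions, a mean signal (baseMean) that the authors computed, and the authors' fold ratio or log2 fold change, and in 27 of 27 member entries that mean matched the counts (tolerance 0.02 on the log2 scale). Bowtie2 2.2.3, HISAT2 2.1.0 and HTSeq 0.6.0 are named for RNA, and bcl2fastq 2.2, Bowtie2 2.1.0 and MACS2 2.1.1 for chromatin, per the submitters' processing notes. The deposited peak tables give reads per peak as counts, the total reads as another constant, and RPM and its log2 ratio as the authors scaled them by total reads. For H3K4me3 and H3K27me3 the headers carry initials, and which is KO was taken from the direction of the deposited ratio and the table's title. AcNPM1 has 1 column for 3 labelled samples.

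A gene not listed in a table was taken to have no counts there. The labels give more samples than there are columns at 18h, 20h, 22h and in mESC, so columns carry a group and no labelled replicate number. Columns of a 24h group correlated over 0.99 were summed. Each table was fitted with edgeR 4.0.16 in R 4.3.3 (TMM, filterByExpr, quasi-likelihood test, Benjamini-Hochberg over all genes tested, threshold 0.05), and 18h, 20h and 22h also together for time and for the change of the KO difference. CPM use TMM-scaled sizes, set over 18 libraries for 18h, 20h and 22h and within the table otherwise. DESeq2 1.42.0 and other settings were alternatives. The edgeR fits were also run on simulated counts drawn independently for each gene and library. Those counts hold no shift shared by the genes of a library and cannot show whether columns are separate samples. The SE of a log2 change was computed from its size and its edgeR F statistic, and RNA intervals from the SE by a normal approximation. Peak intervals are exact binomial at 95%. Named genes are all members, the 3 genes most like each, relatives, and at most 3 list genes each way. One gene that this rule names is not reported here. The members, lists and motifs were chosen with earlier results of these data known.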

Additional observations from a re-analysis of the deposited data

How the results depend on the processing

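No paired analysis was possible because the columns carry no labelled replicate number. For KO against control embryos no member was called under any setting run. Over all genes, the calls at 18h were 1 as reported, 72 with no filter on low counts and 98 by DESeq2. At 20h they were 2, 15 and 32, with 1 in the joint fit, and at 22h 1, 33 and 4. At 24h they were 0, 3 and 1405, with 823 when every column was its own library. For the change of the KO difference they were 0, 86 with no filter and 1331 with the 24h libraries added, no member among them. For 20h against 18h they were 218, 836 and 1674 in KO and 171, 554 and 1118 in control embryos. For 22h against 20h they were 1612 and, by DESeq2, 2870 in KO, and 534, 996 and 1686 in control embryos. For 22h against 18h they were 772, 1258 and 1915 in KO and 310, 709 and 1078 in control embryos. Members called at 22h against 18h were 1, 4 with no filter and 4 by DESeq2 in KO, and 1, 2 and 4 in control embryos. At 20h against 18h they were 0, 2 and 1 in KO, and 0 and 1 with no filter in control embryos, and at 22h against 20h 0 and 1 with no filter in each. The cause was not tested.

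Leaving out 1 library at a time gave 1 to 2 genes called at 20h and at 22h, 0 to 39 at 24h, 4 to 677 (KO) and 0 to 305 (control) for 20h against 18h, 776 to 1757 and 45 to 661 for 22h against 20h, and 247 to 972 and 8 to 393 for 22h against 18h, with 0 to 1 and 0 to 2 members called in the last and 0 to 1 for 20h against 18h in KO. A lone library left in a group was assumed to vary like the others. Signs turned for these log2 values of KO against control: at 18h Tdpoz1 (-0.0021 to 1.50), Tdpoz3 (-1.97 to 1.51) and Tdpoz4 (-0.56 to 1.76), at 20h Sp110 (-0.10 to 0.55) and Ddit4l (-2.51 to 0.88), at 22h Ddit4l (-0.55 to 0.99), and at 24h Zfp352 (-7.69 to 7.26). For 22h against 20h they turned for Zfp352 (-0.11 to 1.44), Tdpoz1 (-1.44 to 0.83), Tdpoz3 (-1.88 to 2.95) and Sp110 (-0.42 to 0.14) in KO, and for Sp110 (-0.27 to 0.0799) in control embryos. The call of Ddit4l in mESC held with RLE in place of TMM scaling, with no filter on low counts and by DESeq2. Each of these kept the columns of a group apart, though they correlated at 0.998. None of them therefore checks the call across separate libraries.

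Within 1 kb of the start 0 members had an H3K4me3 peak and 1 each an H3K27me3 peak, an AcNPM1 peak and an AcNPM1 peak in the inhibitor table. From RefSeq starts 2 had an H3K4me3 peak. With 3 counts as a floor, limits for a gene without counts were 0.160 to 0.274 CPM per library.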
